A study of Mus musculus with 2 samples.

Results

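The genes described here are 10 matrix proteases and protease inhibitors: the matrix metalloproteinases Mmp2, Mmp3, Mmp14 and Mmp15, the ADAMTS proteases Adamts1 and Adamts9, and the tissue inhibitors of metalloproteinases Timp1, Timp2, Timp3 and Timp4. They were chosen by gene symbol, and all 10 were among the 31055 features counted in each library. Endothelial cells of tumors were profiled with droplet scRNAseq, a single-cell method that tags every transcript it captures with a molecular barcode (UMI) so that copies made by PCR count as 1. Female C57BL6 mice of wild-type genotype, 6 weeks old, received 100000 cells of the PyMT mammary tumor line or the KPC pancreatic tumor line orthotopically, and tumors were taken after 10 days. PyMT tumors were digested with 400 U/mL collagenase D and KPC tumors with 500 U/mL. Cells carrying CD45, EpCAM, Ter119, podoplanin or Annexin V were depleted before blood endothelial cells (BECs) were sorted. Each tumor model had 1 library, and the number of mice behind it is not given in the sources used here. Because cells from a single library cannot stand in for replicates, differences were described without tests, and all intervals cover counting error only. Tumor model, digestion and library cannot be told apart in any comparison between KPC and PyMT.

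Matrix metalloproteinases and ADAMTS proteases are zinc enzymes that cut collagens, proteoglycans and other matrix proteins, and endothelial cells use them to cross and remodel their basement membrane when vessels sprout. Membrane-anchored MMP14 (MT1-MMP) activates the secreted MMP2, a step in which TIMP2 acts as a bridge between both enzymes. TIMPs otherwise block the active site of metalloproteinases, and TIMP3 differs from the other family members by binding to the matrix and by inhibiting ADAMTS enzymes as well.

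Cells were assigned to classes by UMIs of marker genes, none of which is among the 10 genes. In order, Krt8 and Krt18 defined epithelial cells, Col1a1 and Col1a2 fibroblasts, Mmrn1 and Prox1 lymphatic cells, and Notch3 and Higd1b pericytes. Among BECs, Ackr1 and Selp defined venules, Gja5 and Sema3g arteries, Apln and Angpt2 tip cells, and Car4 and Cd300lg capillaries. After filtering, the PyMT library held 11744 cells and the KPC library 9591, of which 5074 and 3344 fell into the 4 BEC classes and 5603 and 4089 into no class ("other"). The class rules count UMIs, so membership depends on depth: the median was 4254 UMIs in PyMT capillary cells and 1879 in KPC capillary cells, against 5845 and 5450 in tip cells. Because classes were assigned in order, a cell could meet more than 1 rule. In PyMT this held for 797 of 1991 tip, 189 of 360 venule and 25 of 126 artery cells. In KPC it held for 184 of 1302, 142 of 640 and 8 of 105. Capillaries, last in the order, had 0 such cells, so the BEC classes were not fully separate cell types. The libraries shared 170 cell barcodes. Independent markers went with the venule, artery, lymphatic and fibroblast labels, and there were exceptions elsewhere. The 6 tip markers Esm1, Pgf, Cxcr4, Nid2, Plvap and Kcne3 summed to 1970 CPM in PyMT tip cells against 1924 CPM in capillaries, and to 3346 CPM in KPC tip cells against 5147 CPM in capillaries and 3611 CPM in unclassified cells. Plvap made up most of these sums and was higher in capillaries (1627 against 1211 CPM in PyMT, 4605 against 2095 CPM in KPC), whereas the 5 others were each higher in tip cells, for example Esm1 at 399 against 83.4 CPM in PyMT and 894 against 372 CPM in KPC. The summed list therefore did not single out the tip class, which is defined here by Apln and Angpt2 only. The Krt8/Krt18 class of PyMT had 40.7 CPM (UMIs of a gene per 1000000 UMIs of the class) over Epcam, Krt19, Krt7, Cdh1 and Cldn4, against 4558 CPM in KPC, and is therefore named by its rule. Capillary markers were highest in KPC capillaries, but in PyMT they summed to 10538 CPM in the pericyte class against 4800 CPM in capillaries. The pericyte class was mixed, with 3109 CPM of pan-endothelial markers in PyMT (27 cells) and 2300 CPM in KPC (119 cells), and the PyMT fibroblast class held only 28 cells against 443 in KPC. Of the BEC classes, arteries had the most RNA of 6 pericyte markers. These summed to 336 CPM in PyMT arteries, against 56.7 to 72.5 CPM in the other BEC classes. In KPC they summed to 458 CPM, against 165 to 263 CPM. Any part of this RNA in the artery levels below was not tested.

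Cells also differed in 8 immediate early and heat shock genes that respond to tissue dissociation: Fos, Fosb, Jun, Junb, Egr1, Atf3, Hspa1a and Hspa1b, a list chosen after the values had been seen. Results were therefore also read in cells with under 0.2% of their UMIs in these genes, called low-dissociation cells here. The name stands for this limit only, and whether dissociation raised these genes here was not tested. In KPC these were 153 of 1297 capillary cells, 564 of 1302 tip cells, 136 of 640 venule cells and 24 of 105 artery cells. In PyMT they were 1635 of 2597, 1491 of 1991, 173 of 360 and 54 of 126 cells.

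The genes lie on 8 chromosomes of GRCm38. Mmp2 (chromosome 8, 92827291 to 92853420) and Mmp15 (chromosome 8, 95352268 to 95375080) are on the same chromosome, as are Adamts9 (chromosome 6, 92772699 to 92943492) and Timp4 (chromosome 6, 115241892 to 115252205). Mmp3 lies on chromosome 9 (7445822 to 7455975), Mmp14 on chromosome 14 (54431612 to 54445364), Adamts1 on chromosome 16 (85793827 to 85803113), Timp1 on chromosome X (20870166 to 20874735), Timp2 on chromosome 11 (118301069 to 118355740) and Timp3 on chromosome 10 (86300372 to 86349506). Timp1, Timp3 and Timp4 lie within the synapsin genes Syn1, Syn3 and Syn2, which run on the opposite strand. Syn1 and Syn3 had at most 26 UMIs in a library, whereas Syn2 had 373 UMIs in PyMT and 277 in KPC, more than Timp4 itself with 154 and 15. Timp4 values are uncertain because its own UMIs were few. Whether reads of Syn2 bear on them was not tested.

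Sequences upstream of the transcription start were found for 9 of the 10 genes in the RefSeq promoter table for GRCm38.p6, and 3 are shown because the values below turn on them: Mmp3 and Timp1, which were highest in fibroblasts, and Adamts1, which differed between the libraries. Each line gives the 250 bases before the start, with capitals for 3 motifs searched on both strands: TGANTCA, the letters of an AP-1 site, TATAAA, the letters of a TATA box, and GGGCGG, the letters of a GC box, whose reverse complement also appears.
Mmp3 (chr9:7445572-7445821, forward strand): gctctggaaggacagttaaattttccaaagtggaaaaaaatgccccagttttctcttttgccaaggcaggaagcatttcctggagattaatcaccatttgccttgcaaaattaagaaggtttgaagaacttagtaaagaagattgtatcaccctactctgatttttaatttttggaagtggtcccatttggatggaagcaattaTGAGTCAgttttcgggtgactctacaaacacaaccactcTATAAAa
Timp1 (chrX:20869916-20870165, forward strand): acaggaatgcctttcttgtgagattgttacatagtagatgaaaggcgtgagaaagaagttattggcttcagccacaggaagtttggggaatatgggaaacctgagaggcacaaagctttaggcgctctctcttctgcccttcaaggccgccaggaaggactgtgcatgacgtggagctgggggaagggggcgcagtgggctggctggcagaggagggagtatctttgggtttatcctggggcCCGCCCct
Adamts1 (chr16:85803114-85803363, reverse strand): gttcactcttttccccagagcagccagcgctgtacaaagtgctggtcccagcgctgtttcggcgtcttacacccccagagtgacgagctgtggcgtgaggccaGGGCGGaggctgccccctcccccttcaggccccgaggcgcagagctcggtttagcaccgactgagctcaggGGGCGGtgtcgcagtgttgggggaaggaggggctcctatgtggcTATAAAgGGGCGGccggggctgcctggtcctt
The AP-1 letters stood 46 bases before the start of Mmp3 and in none of the other 8 windows, against 6.75% of the 32851 windows in the table. Adamts1 had 3 GC boxes and TATA box letters, and Timp1 had 1 GC box. GC boxes were found in 32.7% and TATA box letters in 12.4% of all windows. These matches describe the letters only.

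**Figure D1:**
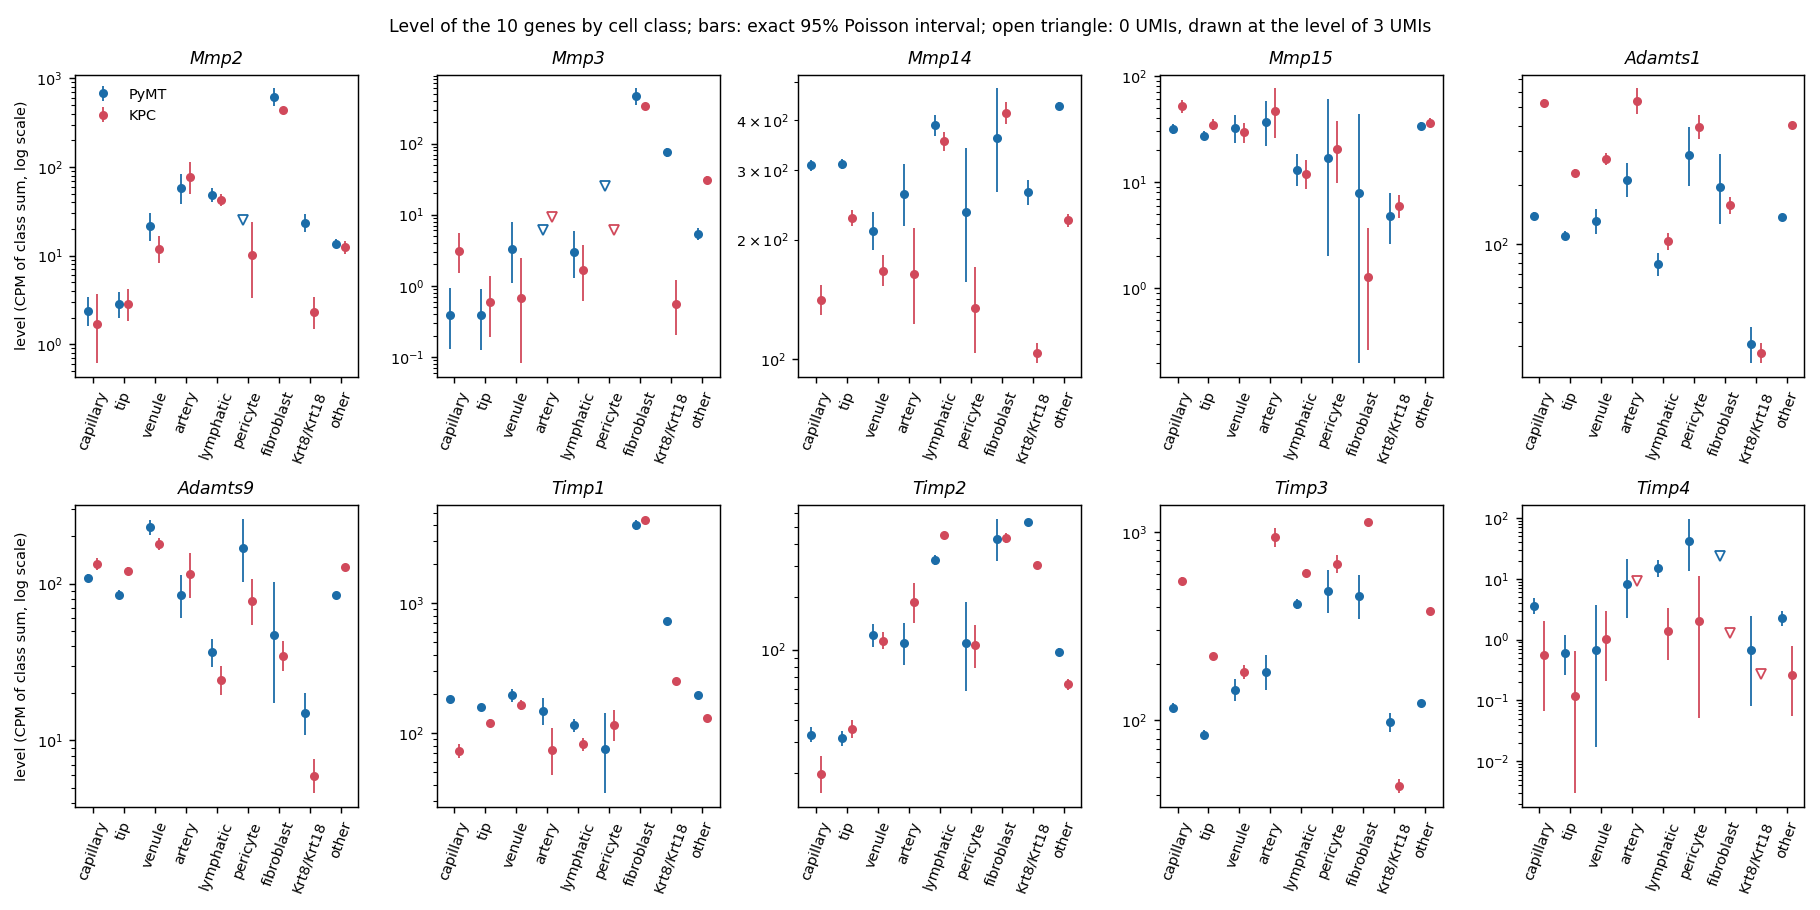
Level of each of the 10 genes (CPM of the summed UMIs of a class, log scale) in 9 cell classes of the PyMT (blue) and KPC (red) libraries; bars are exact 95% Poisson intervals and open triangles mark 0 UMIs, drawn at the level of 3 UMIs. Mmp2, Mmp3 and Timp1 peaked in the fibroblast class of both libraries, whereas Mmp15 and Adamts9 had lower values there than in BEC classes. In PyMT fibroblasts these rest on 1 UMI and 6 UMIs, with intervals that include BEC levels.

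Mmp2 and Mmp3 had their highest levels in fibroblasts, and Mmp2 was also counted in arteries and lymphatic cells. Mmp2 (gelatinase A), which degrades type IV collagen, stood at 620 CPM in PyMT fibroblasts (79 UMIs, with an exact 95% Poisson interval of 491 to 773) and at 443 CPM in those of KPC (1047 UMIs, 417 to 471). Arteries followed with 57.4 CPM in PyMT (28 UMIs, 38.2 to 83.0) and 77.3 CPM in KPC (25 UMIs, 50.0 to 114). Lymphatic cells had 48.7 CPM in PyMT and 42.4 CPM in KPC. The artery and lymphatic intervals overlapped in PyMT and lay apart by a small margin in KPC. Venules had 21.3 CPM in PyMT and 11.95 CPM in KPC, while capillaries had 2.36 and 1.68 CPM and tip cells 2.84 and 2.83 CPM. The same order of arteries, venules and then capillaries or tip cells was seen in both libraries. In arteries, 11.1% of PyMT cells and 16.2% of KPC cells had a Mmp2 UMI, against 0.732% and 0.463% of capillary cells, whose median depth was higher in PyMT and lower in KPC than that of arteries (3439 and 2485 UMIs).

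Fibroblast RNA was measured beside these values. The 6 fibroblast markers Dcn, Lum, Col3a1, Pdgfra, Fbln1 and Dpt summed to 20179 CPM in PyMT fibroblasts and to 8.20 CPM in PyMT arteries, where 4 of the 6 were at 0 UMIs. In KPC they summed to 14612 and 18.5 CPM, again with 4 of the 6 at 0 in arteries. Arterial Mmp2 was 9.26% of the fibroblast level in PyMT and 17.4% in KPC, whereas the single marker with the highest share in arteries was Dcn at 0.259% in PyMT and Fbln1 at 1.66% in KPC. Lymphatic Mmp2 stood at 7.85% and 9.57% of the fibroblast level. There, Dcn was at 13.96% and 4.98% and Fbln1 at 7.16% and 5.48% of their own fibroblast levels, while Lum stayed at 0.0385% and 0.312%.

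**Figure D2:**
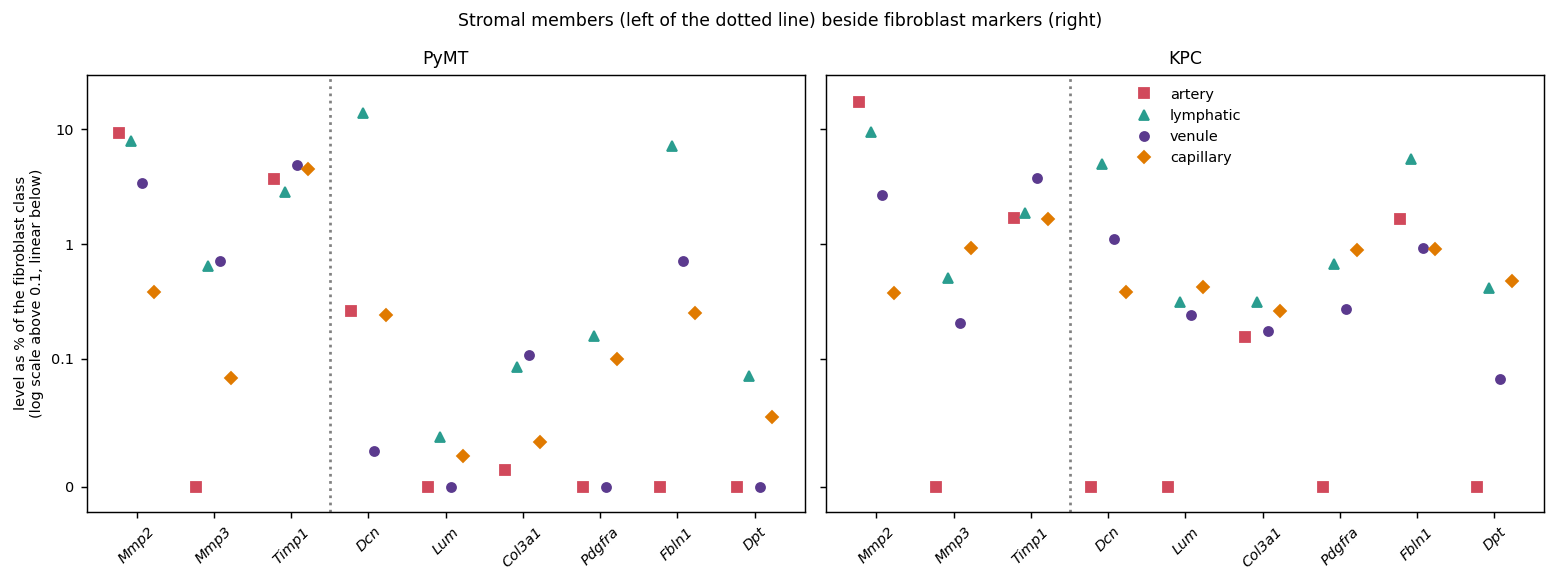
Level of Mmp2, Mmp3, Timp1 and of 6 fibroblast markers in artery, lymphatic, venule and capillary cells, as percent of the level in the fibroblast class of the same library (log scale above 0.1, linear below). Mmp2 in arteries (9.26% in PyMT, 17.4% in KPC) lay above every fibroblast marker in arteries.

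Mmp3 (stromelysin-1), which cuts proteoglycans and activates other MMPs, stood at 463 CPM in PyMT fibroblasts (59 UMIs, 353 to 598) and 332 CPM in KPC fibroblasts (785 UMIs, 309 to 356). BECs as a whole had 0.541 CPM in PyMT and 1.18 CPM in KPC, and arteries had 0 UMIs in both libraries, which allows up to 6.15 and 9.27 CPM (3 counts). BEC counts of Mmp3 were therefore at or near 0. Mmp3 was concentrated in few cells: in KPC, 30.0% of fibroblasts had a UMI, and 10 of the 443 cells held 40.1% of the UMIs of the class. The Krt8/Krt18 class of PyMT had 75.0 CPM (221 UMIs, 65.5 to 85.6) and held 53.0% of all Mmp3 UMIs of that library, against 0.551 CPM (6 UMIs) in the KPC class. At 31.1 CPM, against 332 CPM in fibroblasts, the unclassified cells of KPC held 30.1% of Mmp3 UMIs. Of their 351 UMIs, 340 were in the 102 cells with at least 3 UMIs of Dcn, Lum and Col3a1, a split made after the values were seen, at 1353 CPM against 0.998 CPM in the other 3987 cells.

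Mmp14 and Mmp15, both membrane-anchored, differed in where they were counted. Mmp14 had the most UMIs of the 4 MMPs in BECs, at 303 CPM in PyMT (8398 UMIs, 297 to 310) and 194 CPM in KPC (2970 UMIs, 187 to 201). In PyMT it ranged from 211 CPM in venules to 310 CPM in tip cells, with 308 CPM in capillaries and 260 CPM in arteries. In KPC it ranged from 141 CPM in capillaries to 227 CPM in tip cells, with 167 CPM in venules and 164 CPM in arteries. Venules were lowest in PyMT and capillaries in KPC. In low-dissociation cells the KPC order changed, with capillaries at 290 CPM (247 to 337) and tip cells at 264 (248 to 280). Arteries were at 219 (117 to 375, 13 UMIs) and venules at 172 CPM (142 to 208). Capillary and tip intervals overlapped, and the artery interval covered the other 3. Venules then had the lowest value in both libraries, with intervals below those of capillaries and tip cells but overlapping that of arteries. Lymphatic cells (388 and 354 CPM) and fibroblasts (361 and 418 CPM) lay above the tip cells of their library, although the PyMT fibroblast interval (264 to 482) included the tip level. Mmp15 (MT2-MMP) was lower, at 29.8 CPM in PyMT BECs (825 UMIs, 27.8 to 31.9) and 38.0 CPM in KPC BECs (581 UMIs, 34.9 to 41.2). It had 13.1 and 11.9 CPM in lymphatic cells, 4.75 and 5.98 CPM in the Krt8/Krt18 classes and 1.27 CPM (3 UMIs) in KPC fibroblasts. PyMT fibroblasts held 1 UMI of Mmp15. Mmp15 was thus lower in lymphatic, Krt8/Krt18 and fibroblast cells than in the BECs of both libraries. Its PyMT fibroblast interval (0.199 to 43.8) included the BEC level. Mmp14 was likewise lower in the Krt8/Krt18 classes (263 and 104 CPM) than in BECs, but its values in lymphatic cells and fibroblasts were higher.

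Adamts1 and Adamts9, secreted proteases of proteoglycans such as versican and aggrecan, were counted in all BEC classes. Adamts1 was at 110 to 213 CPM in the 4 BEC classes of PyMT and at 231 to 541 CPM in those of KPC. The lowest value was that of tip cells and the highest that of arteries in both libraries. In KPC, arteries (541 CPM, 464 to 627) and capillaries (525 CPM, 502 to 550) had overlapping intervals, while in PyMT arteries (213 CPM, 174 to 258) lay above capillaries (138 CPM, 132 to 145). The pericyte class had 286 CPM in PyMT and 397 CPM in KPC, and the Krt8/Krt18 classes had 30.6 and 27.7 CPM. Adamts9, in turn, was highest in venules, at 228 CPM in PyMT (342 UMIs, 204 to 253) and 178 CPM in KPC (522 UMIs, 163 to 194). Capillaries had 109 and 134 CPM, tip cells 85.2 and 120 CPM, and arteries 84.1 and 114 CPM. With all cells of a class counted, the venule interval lay above those of the other BEC classes in both libraries. Lymphatic cells had 36.4 and 24.3 CPM. In low-dissociation cells, the venule interval of Adamts9 still lay above the other BEC classes in PyMT. In KPC, venules had 154 CPM (125 to 187), overlapping capillaries (109 CPM, 83.4 to 140) and arteries (118 CPM, 47.4 to 243).

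Among the inhibitors, Timp1 was highest in fibroblasts but was counted in every class, and Timp3 was broad. Timp2 was high in lymphatic, fibroblast and Krt8/Krt18 cells and, among BECs, higher in venules and arteries. Timp1, a secreted inhibitor of most MMPs, stood at 4028 CPM in PyMT fibroblasts (513 UMIs, 3687 to 4392) and 4408 CPM in KPC fibroblasts (10414 UMIs, 4324 to 4494). In PyMT, 10 of the 28 fibroblasts held 86.5% of these UMIs. The fibroblast class of KPC held 62.1% of all Timp1 UMIs of the library, but in PyMT, with few fibroblasts, the share was 4.29%. The Krt8/Krt18 classes were second, at 733 CPM in PyMT and 251 CPM in KPC. Among BECs, Timp1 ranged from 148 CPM in arteries to 196 CPM in venules in PyMT and from 72.7 CPM in capillaries to 166 CPM in venules in KPC.

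Timp2, the inhibitor that also takes part in activating pro-MMP2, was low in capillaries (32.8 CPM in PyMT, 19.6 CPM in KPC) and tip cells (31.4 and 35.4 CPM). It was higher in venules (121 and 113 CPM) and arteries (109 and 185 CPM), and higher again in lymphatic cells (325 and 447 CPM). The intervals of venules and arteries lay above those of capillaries and tip cells in both libraries, while venules and arteries overlapped in PyMT and lay apart in KPC. Fibroblasts had 424 and 430 CPM. The Krt8/Krt18 classes had 530 and 302 CPM. That of KPC held 44.3% of the Timp2 UMIs of its library, and 10879363 of the 43850880 UMIs of all genes in filtered cells. Timp3 stood at 83.9 CPM in tip cells, 117 CPM in capillaries, 145 CPM in venules and 180 CPM in arteries of PyMT. The order differed in KPC, where venules had 180 CPM (165 to 196), tip cells 218 CPM (208 to 228), capillaries 550 CPM (526 to 575) and arteries 937 CPM (834 to 1048). Lymphatic cells (416 and 608 CPM) and fibroblasts (455 and 1131 CPM) were also high. In low-dissociation cells of PyMT, arteries were no longer highest among BECs. Timp3 there was at 97.9 CPM in arteries (59.8 to 151, 20 UMIs), 94.8 CPM in capillaries (88.2 to 102) and 110 CPM in venules (88.0 to 136), with overlapping intervals. Timp4, the least abundant member, had 154 UMIs in the PyMT cells and 15 in the KPC cells, and most PyMT UMIs outside the unclassified cells were in capillary (46) and lymphatic cells (40).

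The question in the vessel comparisons was whether the proteases and inhibitors differed between capillaries and venules, whose identities the study examined, and arteries and tip cells were set against capillaries in the same way. Genes were counted as apart when the CPM differed at least 2-fold, with at least 20 UMIs over both classes and a mean of at least 10 CPM. A gene under 10 CPM on one side could pass only through the other, so its direction in the counts was fixed. Mmp2 passed only through arteries, lymphatic cells, fibroblasts, PyMT venules and PyMT Krt8/Krt18 cells. The same held for Mmp3 in fibroblasts and PyMT Krt8/Krt18 cells, and for Timp4 in PyMT pericytes. Against fibroblasts and Krt8/Krt18 cells, Mmp15 passed only through BECs, as did Adamts9 against KPC Krt8/Krt18 cells. In venules over capillaries, 3 of 8 members were apart in PyMT, against 4.28% of the 7571 genes compared, and 3 of 7 in KPC, against 6.78%. Timp2 was higher in venules in both, with a log2 ratio of 1.88 in PyMT (exact 95% interval 1.62 to 2.13) and 2.53 in KPC (2.15 to 2.92). Mmp2 (3.18, 2.41 to 3.94) and Adamts9 (1.07, 0.90 to 1.24) were the others in PyMT, where Adamts9 lay just past the 2-fold line. In KPC, Adamts9 reached 0.42, Timp1 was higher (1.19, 0.97 to 1.41) and Timp3 lower (-1.61, -1.75 to -1.47) in venules. In low-dissociation cells of KPC, Timp1 was at 0.28 (-0.16 to 0.73) and Timp3 at -0.69 (-1.07 to -0.31), so that neither reached 2-fold, while Timp2 remained past it (2.13, 1.22 to 3.16). Adamts9 in PyMT fell under the line, at 0.95, when cells needed 1000 genes and under 5% mitochondrial UMIs. Timp3 was 0.32 in PyMT, so its ratio had opposite signs in the libraries. Mmp2 did not reach the mean of 10 CPM in KPC, with 35 and 6 UMIs.

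In arteries over capillaries, 2 of 8 members were apart in PyMT, against 13.6% of all genes, and 2 of 8 in KPC, against 15.5%. They were Mmp2, at 4.60 in PyMT (3.81 to 5.40) and 5.53 in KPC (4.21 to 7.10), and Timp2, at 1.73 (1.29 to 2.14) and 3.24 (2.72 to 3.76). The capillary side of the Mmp2 ratio rests on 30 UMIs in PyMT and 6 in KPC, so Mmp2 could be counted only as higher in arteries. Mmp14 differed little between arteries and capillaries (-0.24 and 0.22, both intervals including 0). Tip cells over capillaries gave 0 of 7 members apart in PyMT, against 0.569% of all genes, and 2 of 7 in KPC, against 7.66%. Those were Adamts1 (-1.19, -1.28 to -1.09) and Timp3 (-1.33, -1.43 to -1.24), both lower in tip cells. In low-dissociation cells they were at -0.78 (-1.02 to -0.53) and -0.67 (-0.94 to -0.40), both under 2-fold. In PyMT the same genes were at -0.32 and -0.48, the same direction with a smaller ratio. For Mmp14, tip cells over capillaries gave 0.01 (-0.06 to 0.07) in PyMT and 0.69 (0.55 to 0.83) in KPC, where low-dissociation cells had -0.14 (-0.37 to 0.11).

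**Figure D3:**
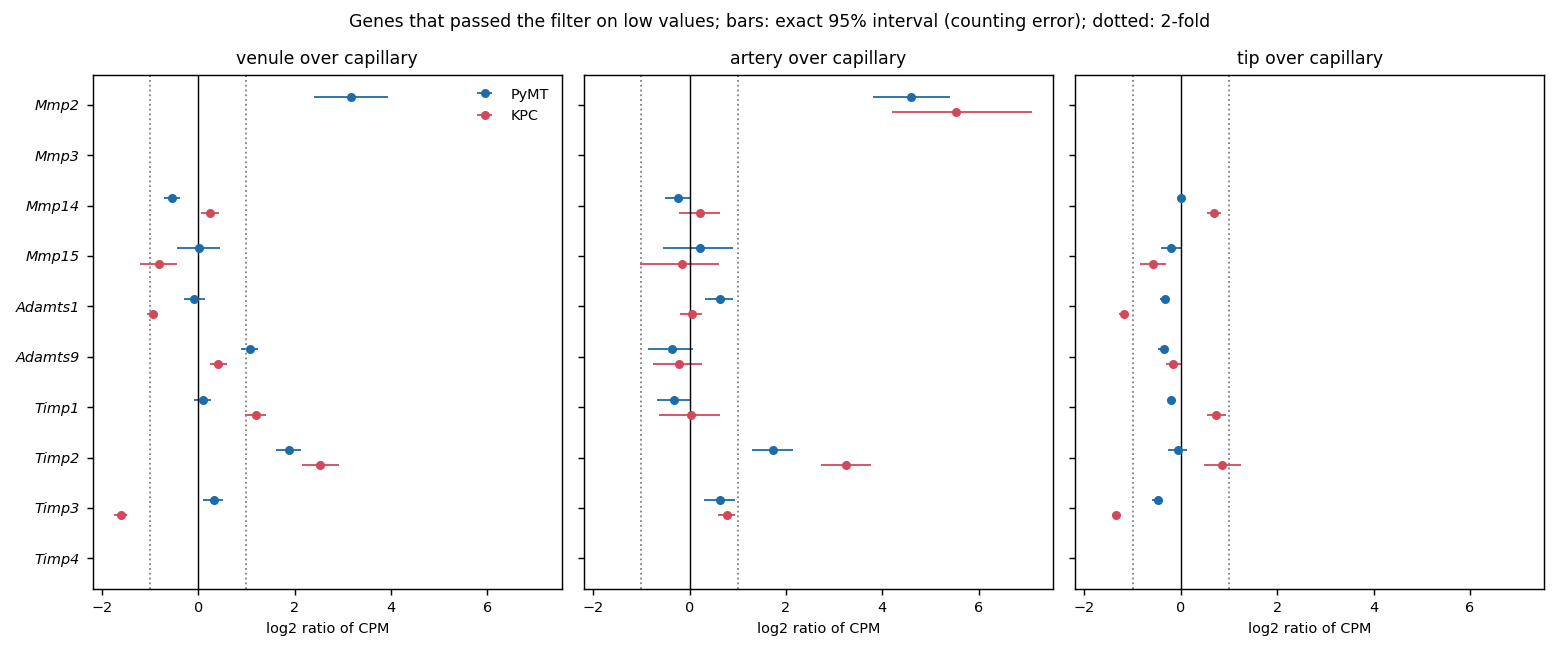
Log2 ratio of CPM of venule, artery and tip cells over capillary cells for members that passed the filter on low values, in PyMT (blue) and KPC (red), with exact 95% intervals and dotted lines at 2-fold. Timp2 lay right of the 2-fold line in venules and arteries of both libraries, and Timp3 in venules fell on opposite sides of 0 (0.32 in PyMT, -1.61 in KPC).

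Lymphatic cells differed from BECs in 5 of 8 members in PyMT, against 11.6% of all genes, and in 6 of 8 in KPC, against 13.1%. Timp2 (3.08 and 3.17), Mmp2 (3.41 and 2.85) and Timp3 (1.999 and 1.002) were higher in both, and Adamts9 (-1.51 and -2.46) and Mmp15 (-1.18 and -1.68) lower in both. Adamts1 was the sixth in KPC, at -1.61. Timp3 in KPC lay at the 2-fold line, and fell under it when the most UMI-rich cells were left out (0.95), after centring (0.97) and with the mean of per-cell CPM (0.71). In low-dissociation cells, Mmp15 was at -0.55 in PyMT. The pericyte class, mixed with endothelial RNA, differed in 5 of 8 members in PyMT, against 27.5%, and in 2 of 7 in KPC, against 13.3%. Timp3 (2.23 and 1.16) and Timp2 (1.51 and 1.09) were higher in both. Adamts1 (1.18) and Timp4 (4.30 on 5 UMIs) were higher and Timp1 (-1.18) lower in PyMT, where the median log2 ratio of all genes was 0.13. Of these, Adamts1 and Timp3 had the opposite sign (-0.54 and -1.23) in the 5 low-dissociation cells of PyMT, and Timp1 (-0.31) and KPC Timp3 (0.87) were under 2-fold there. KPC Timp2 fell to between 0.80 and 0.98 under 4 alternatives.

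Fibroblasts differed from BECs in 7 of 9 members in PyMT, against 38.5% of all genes, and in 8 of 9 in KPC, against 28.3%. Mmp3 (9.74 and 8.14), Mmp2 (7.08 and 6.24), Timp1 (4.55 and 5.23), Timp2 (3.47 and 3.12) and Timp3 (2.13 and 1.90) were higher in both libraries, and Mmp14 passed the 2-fold line in KPC (1.11) but not in PyMT (0.25). Mmp15 (-1.92 on 1 UMI, and -4.90) and Adamts9 (-1.14 on 6 UMIs, and -1.95) were lower, the latter at -0.59 in the 4 low-dissociation fibroblasts of PyMT. Over all genes compared, the median log2 ratio was -0.12 in PyMT and -0.24 in KPC. The Krt8/Krt18 class differed from BECs in 7 of 9 members in PyMT, against 21.3%, and in 6 of 7 in KPC, against 31.3%. Timp2 (3.79 and 2.60) and Timp1 (2.09 and 1.10) were higher and Adamts9 (-2.79 and -4.49), Adamts1 (-2.04 and -3.51) and Mmp15 (-2.65 and -2.67) lower in both. Timp1 in KPC was at 0.84 in low-dissociation cells. Timp3 was at -0.09 in PyMT and -2.76 in KPC, where the median of all genes was -0.19. Mmp3 (7.11) and Mmp2 (2.35) were higher in the PyMT class, and in KPC both were under the filter on low values.

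Between the libraries, Adamts1 and Timp3 were higher in KPC BECs and Mmp14 and Timp1 lower. In capillaries, 4 of 7 members were at least 2-fold apart, against 10.9% of all genes, and the median log2 ratio of all genes was 0.14. Timp3 was at 117 CPM in PyMT and 550 CPM in KPC (log2 ratio 2.24, 2.14 to 2.33) and Adamts1 at 138 and 525 CPM (1.93, 1.83 to 2.02). Mmp14 was lower in KPC (-1.13, -1.27 to -0.996; -0.86 in cells with 1000 genes or more and under 5% mitochondrial UMIs), as was Timp1 (-1.33, -1.53 to -1.15). In tip cells, 2 of 7 members were apart, against 3.15%, namely Timp3 (1.38) and Adamts1 (1.07). In venules only Adamts1 (1.06) of 8 was apart, against 3.83%, while Timp3 was at 0.31. In arteries, 2 of 8 were apart, against 9.5%, with Timp3 at 2.38 and Adamts1 at 1.34. Lymphatic cells had 0 of 8 members apart, against 2%, and Timp3 there was at 0.55. In the pericyte class, 1 of 6 members was apart, against 15% of genes, namely Adamts9 (-1.12).

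The summed level of the 8 immediate early and heat shock genes differed between the same classes. They summed to 1959 CPM in PyMT and 8541 CPM in KPC capillaries (log2 ratio 2.12). The ratios were 1.11 in arteries, 1.002 in tip cells, 0.93 in venules and 0.29 in lymphatic cells. In low-dissociation capillary cells, Timp3 was at 94.8 and 251 CPM (1.41, 1.14 to 1.66) and Adamts1 at 113 and 305 CPM (1.44, 1.20 to 1.68), still more than 2-fold apart. Mmp14 was at 332 and 290 CPM (-0.20, -0.43 to 0.03) and Timp1 at 192 and 132 CPM (-0.55, -0.90 to -0.21), both under 2-fold. Thus the ratios of all 4 genes were smaller in these cells, and those of Mmp14 and Timp1 no longer reached 2-fold. Adamts1 also fell under 2-fold in tip cells (0.90, 0.76 to 1.05) and venules (0.98, 0.58 to 1.39), but not in arteries (1.20, 0.35 to 2.02), while Timp3 was at 1.13 (0.97 to 1.29) in tip cells and 2.37 (1.505 to 3.26) in arteries. In arteries, 2 other members moved past 2-fold in low-dissociation cells. Timp1 went from -0.99 to -1.12, on 4 KPC UMIs, and Timp2 from 0.77 to 1.13, on 14 KPC UMIs. Other differences between the KPC capillary cells kept and left out, such as depth, were not tested.

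**Figure D4:**
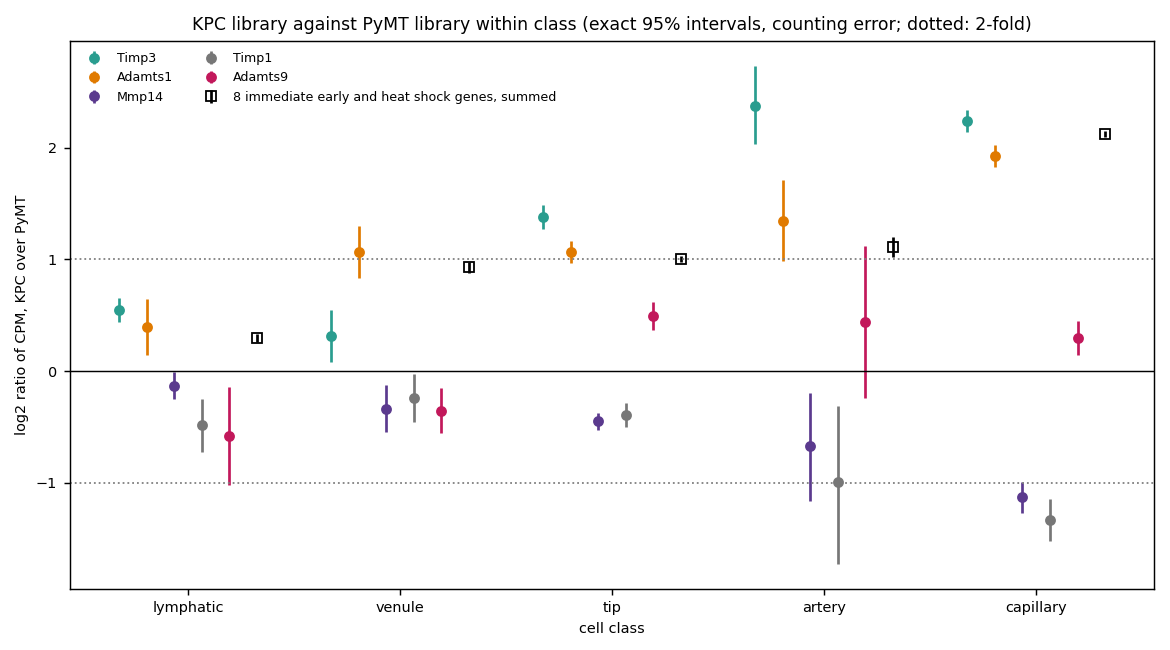
Log2 ratio of CPM, KPC over PyMT, of Timp3, Adamts1, Mmp14, Timp1 and Adamts9 in 5 cell classes, with exact 95% intervals, beside the summed 8 immediate early and heat shock genes (open squares). Timp3 and Adamts1 were highest in arteries and capillaries, and the summed genes ranged from 0.29 in lymphatic cells to 2.12 in capillaries.

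The balance of inhibitor and protease transcripts differed between cell classes and, in arteries, between libraries. UMIs of 3′ libraries do not scale with transcript length, but genes can differ in capture, so shares compare classes better than genes. The 4 Timp genes made up 36.3% of the UMIs of the 10 genes in PyMT capillaries (Clopper-Pearson interval 35.5 to 37.2) and 42.9% in KPC capillaries (41.5 to 44.2). With all cells of a class counted, tip cells had the lowest shares, at 33.9% in PyMT (33.0 to 34.8) and 37.8% in KPC (36.8 to 38.8). In low-dissociation cells of KPC, capillaries had 251 CPM of Timp3 and 290 CPM of Mmp14. Their Timp share was then no higher than that of tip cells, so this ranking held in PyMT only. Venules had 42.5% and 41.1%. With all cells counted, arteries had 40.6% and 55.9%, the smaller part in PyMT and the larger part in KPC. The 24 low-dissociation artery cells of KPC had 30 UMIs of Timp3 and 14 of Timp2, against 22 of Adamts1 and 13 of Mmp14. Which side was larger was not clear in those cells. The pericyte class had 50.3% and 58.5%. Fibroblasts had 74.3% and 81.1%, the Krt8/Krt18 classes 76.8% and 80.3%, and lymphatic cells 60.5% and 67.9%. Inhibitors thus took the larger part of these UMIs in fibroblast, Krt8/Krt18 and lymphatic cells and the smaller part in tip, capillary and venule cells of both libraries. For the trio that activates pro-MMP2, cells were thinned to 2000 UMIs each, which left out shallower cells. Mmp14, Timp2 and Mmp2 were then detected together in 4 of 24 PyMT and 66 of 408 KPC fibroblasts (16.7% and 16.2%). Taken singly, in that order, they were detected in 37.5%, 54.2% and 70.8% of PyMT and 49.8%, 59.3% and 55.1% of KPC fibroblasts. Whether they met in a cell more often than the single shares would give was not tested. All 3 were together in 13 of 489 PyMT and 11 of 615 KPC lymphatic cells, and in the BEC classes in at most 2 of 1941 cells, those of PyMT tip cells.

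**Figure D5:**
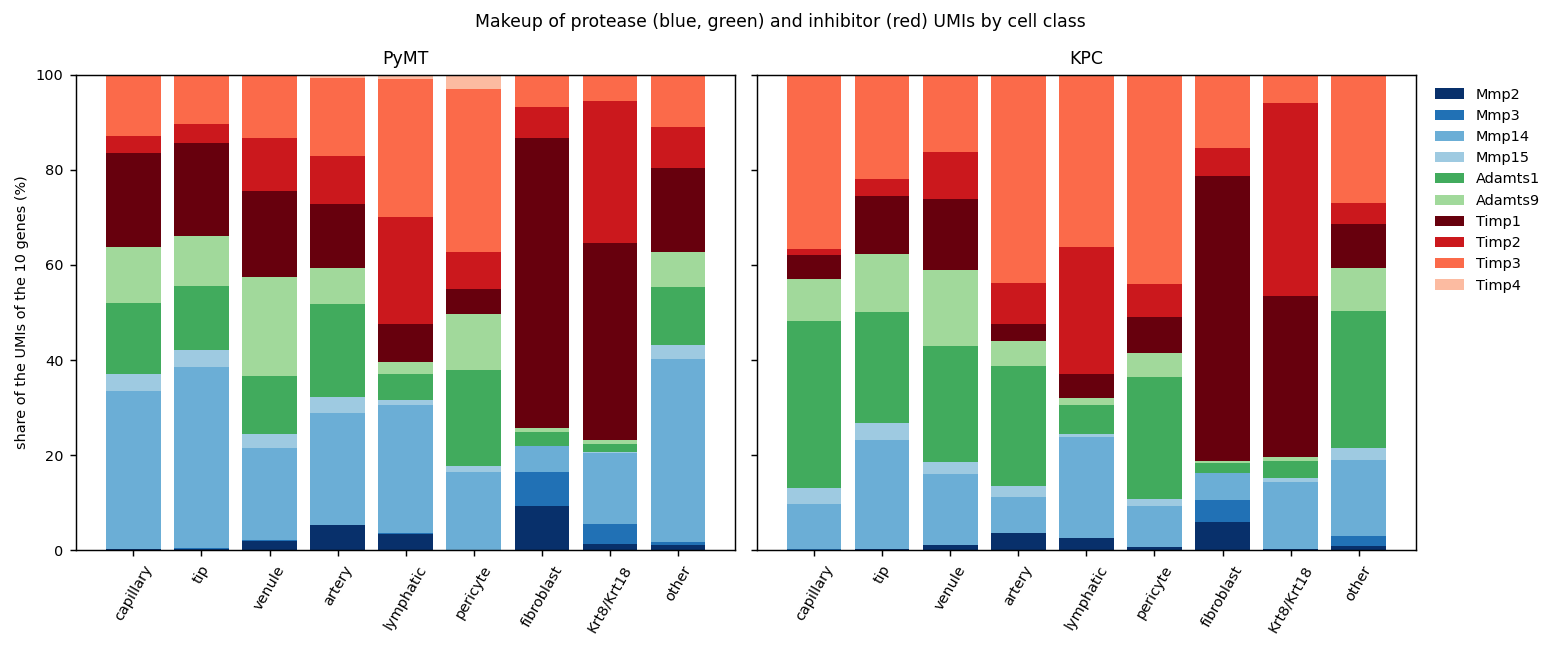
Share of each of the 10 genes among their summed UMIs (percent, stacked to 100%) in 9 cell classes of PyMT and KPC, with MMPs in blue, ADAMTS genes in green and Timp genes in red. With all cells of a class counted, the red part was largest in the Krt8/Krt18 and fibroblast classes (74.3% to 81.1%) and smallest in tip cells (33.9% and 37.8%).

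A list of 58 other genes of matrix proteolysis was read beside the members, with at most 2 named in each direction of a comparison. Shares in parentheses are those of all genes compared that were higher and lower by the same rule. As with the members, a list gene under 10 CPM on one side could be counted in 1 direction only. This held for Ctsh in venules and arteries, Mmp9 and Mmp13 in PyMT Krt8/Krt18 cells, and Adamts2 and A2m in fibroblasts. It also held for Serpine2 and Adamts5 in PyMT lymphatic cells and in KPC over PyMT capillaries. In venules over capillaries, 3 of 23 list genes were higher and 0 lower in PyMT (3.18% and 1.10%), with a list median of 0.12 against 0.03 over all genes. In KPC, 2 of 24 were higher and 0 lower (2.23% and 4.55%), with a median of -0.07 against -0.05. Ctsh, a lysosomal cathepsin, was higher in venules at 2.94 and 3.56. In arteries, 4 of 22 were higher in PyMT (7.67% and 5.89%), with Ctsh at 3.40 and Plat (tissue plasminogen activator) at 1.69, and 4 of 23 in KPC (6.98% and 8.49%), with Ctsh at 3.62; none was lower. In tip cells of KPC over capillaries, 3 of 23 were higher, among them Adamts7 at 1.49, and 1 was lower, Serpine2 at -1.30 (1.96% and 5.71%), whereas 0 of 20 were apart in PyMT (0.217% and 0.352%). Fibroblasts had 16 list genes higher and 3 lower of 31 in PyMT (17.5% and 21.03%) and 17 higher and 2 lower of 32 in KPC (11.92% and 16.3%). The highest ratios were those of the procollagen protease Adamts2 in PyMT (11.97, 10.02 to 15.07, on 2 BEC UMIs) and A2m in KPC (9.94, 7.44 to 15.26, on 1 BEC UMI), with intervals too wide to rank. The list medians there were 1.16 and 1.48, against -0.12 and -0.24 over all genes. In lymphatic cells over BECs, 6 were higher and 4 lower of 23 in PyMT (7.40% and 4.21%) and 3 higher and 6 lower of 23 in KPC (6.50% and 6.56%). Serpine2 (5.26 and 2.54) and Adamts5 (3.10 and 2.15) led upward and Sparc (-1.83 and -2.47) was lowest. In the Krt8/Krt18 classes, 9 were higher and 7 lower of 25 in PyMT (8.27% and 13.05%), where the gelatinase Mmp9 was at 6.93 and the collagenase Mmp13 at 5.20, and 3 higher and 11 lower of 22 in KPC (11.1% and 20.2%), where Plat was at 3.28. The pericyte class had 8 higher and 0 lower of 24 in PyMT (18.4% and 9.11%) and 8 higher and 2 lower of 28 in KPC (8.23% and 5.10%). In KPC over PyMT capillaries, 2 of 23 were higher, Serpine2 at 3.64 and Adamts5 at 1.24, and 2 were lower, among them Adamts7 at -1.17 (8.80% and 2.11%).

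Across the 18 class and library points, the gene whose log level was most like that of each member among 9461 genes was found as a description. The points share libraries and differ in depth. For Mmp2 it was Sulf2 (r = 0.90), for Mmp3 Cxcl14 (r = 0.90), for Mmp14 Myh10 (r = 0.85) and for Mmp15 Cd38 (r = 0.94). For Adamts1 it was Acvrl1 (r = 0.95), for Adamts9 Zfp366 (r = 0.94), for Timp1 Npc2 (r = 0.94), for Timp2 Nupr1 (r = 0.94) and for Timp3 Ifi27 (r = 0.91). Among the members themselves, Mmp3 with Timp1 (r = 0.87) and Adamts1 with Adamts9 (r = 0.77) were most alike, and Mmp15 with Timp2 (r = -0.77) least. Timp4 had too few UMIs to be compared.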

How the data were processed

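Endothelial sorts of PyMT and KPC tumors were sequenced as 1 droplet-based library each. The authors aligned reads to mm10 and deposited UMI counts per gene and barcode as whole numbers, without normalization, from Cell Ranger 3.0 (3.0.2 in the matrix headers). The methods name a v2 kit in one place and v3 in another. Totals were 55547926 UMIs in 12464 barcodes (PyMT) and 44441942 UMIs in 10236 barcodes (KPC).

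From these counts, barcodes had to have at least 500 genes and a mitochondrial share of UMIs under 10%. Cells were classed in a fixed order by summed UMIs: Krt8 + Krt18 at least 5, Col1a1 + Col1a2 at least 10, Mmrn1 + Prox1 at least 3, Notch3 + Higd1b at least 2, Ackr1 + Selp at least 3, Gja5 + Sema3g at least 2, Apln + Angpt2 at least 3 and Car4 + Cd300lg at least 2. No doublet caller was run and no doublets were removed. UMIs were summed per class and scaled to CPM, with exact Poisson intervals for levels, Clopper-Pearson intervals for shares and exact conditional intervals for ratios (95%, Python 3.11.15, numpy 2.4.6, scipy 1.17.1, pandas 2.3.3, matplotlib 3.10.9). A count of 0 was given the level of 3 UMIs. Scripts were tested on simulated counts. Named genes were all 10 members and, of 58 related genes, up to 2 per direction and comparison with the highest and lowest ratio among those at least 2-fold apart, together with the genes most alike in level. A related gene picked by this rule is not reported here. The genes and lists were chosen with earlier results of these data known. Alternatives covered filters on cells and low values, class thresholds, doublets, scaling and thinning to 2000 UMIs (10 in all), and 2 were added after the data were seen. Positions come from the GENCODE annotation of GRCm38 and promoters from RefSeq (GRCm38.p6); the promoter of Mmp2 and protein sequences were not used here.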

Additional observations from a re-analysis of the deposited data

Results flagged for a closer look

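In 4 comparisons, a member pointed one way in PyMT and the other way in KPC, with both intervals clear of 0. The difference between the libraries was not tested, since each tumor model had 1 library. For Timp3 in venules over capillaries, PyMT had a log2 ratio of 0.32 (exact 95% interval 0.10 to 0.52) and KPC one of -1.61 (-1.75 to -1.47). For Mmp14 in venules over capillaries, the PyMT value was -0.55 (-0.72 to -0.38) and the KPC value 0.24 (0.06 to 0.43). For Timp1 in tip cells over capillaries, the values were -0.21 (-0.29 to -0.12) and 0.73 (0.53 to 0.93), PyMT first. For Adamts1 in fibroblasts over BECs, they were 0.64 (0.01 to 1.20) and -0.997 (-1.15 to -0.84).

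The first 3 have KPC capillaries as the comparator, the class in which the immediate early and heat shock genes stood at 8541 CPM. That class was also shallower, with a median of 1879 UMIs against 4254 in PyMT capillaries. Whether either bears on the signs was not tested. Among cells with under 0.2% of UMIs in those genes, Mmp14 in venules over capillaries was lower in both libraries, at -0.44 in PyMT (-0.66 to -0.23) and -0.75 in KPC (-1.11 to -0.39). Timp3 kept opposite signs, at 0.22 (-0.12 to 0.54) and -0.69 (-1.07 to -0.31), as did Timp1 in tip cells, at -0.24 (-0.35 to -0.14) and 0.24 (-0.11 to 0.60), with 1 interval of each pair now including 0.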

How the results depend on the processing

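Over 12 alternatives, 1841 ratios of members could be recomputed, of which 1578 stayed within their counting interval. The sign changed in 66, 18 of them among cells with under 0.2% of UMIs in the 8 immediate early and heat shock genes. That setting turned 2 ratios that were at least 2-fold, both in the PyMT pericyte class (Adamts1 at -0.54 and Timp3 at -1.23, 5 cells left), and 2 whose intervals were clear of 0 before and after, both in KPC: Mmp14 in venules over capillaries (0.24 to -0.75) and Adamts1 in pericytes over BECs (0.34 to -1.28).

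Of 240 counts of members at least 2-fold apart, 206 kept within 1.5 times the value reported. With cells limited to 1000 genes or more and a mitochondrial share under 5%, 1 member was apart in PyMT venules and 1 in KPC arteries, both over capillaries. With lower fibroblast and Krt8/Krt18 thresholds, 1 was apart in KPC pericytes over BECs. Without cells meeting more than 1 class rule, KPC over PyMT gave 1 in lymphatic cells and 2 in pericytes. After thinning to 2000 UMIs, 1 was apart in KPC arteries and 4 in KPC pericytes, and KPC over PyMT gave 1 in tip and 1 in lymphatic cells. With endothelial thresholds raised by 1 UMI, 1 was apart in KPC arteries, 1 in KPC pericytes and 0 in venules between libraries. Without stroma-marked cells, an alternative added after seeing the data, 3 were apart in PyMT pericytes and 3 in pericytes between libraries. In cells with under 0.2% of UMIs in the 8 genes, also added, 0 were apart in KPC tip cells, 1 in KPC venules, 2 in PyMT and 4 in KPC pericytes and 4 in PyMT fibroblasts. Between libraries that setting gave 2 in capillaries, 1 in tip cells, 0 in venules, 4 in arteries, 1 in lymphatic cells and 2 in pericytes. With no filter on low values, tip cells had 1 in PyMT and 4 in KPC, venules 5 and 5, and the libraries differed in 2 in venules, 1 in lymphatic cells and 2 in pericytes. Centring on the median left 1 in tip cells between libraries, and the mean of per-cell CPM gave 5 in KPC tip cells. The cause was not tested; settings that restrict cells leave fewer of them, and dropping the filter compares more genes.

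No paired analysis was possible because each tumor model had 1 library. Leaving out a library would leave a model with none. Small classes limit precision: 1 UMI was worth 7.85 CPM in PyMT fibroblasts and 8.40 CPM in PyMT pericytes.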

Other observations

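Cells that met no class rule carried matrix proteases and inhibitors unevenly. In PyMT, Mmp14 was at 435 CPM in these 5603 cells (exact 95% Poisson interval 427 to 444), above the capillary (308 CPM) and tip (310 CPM) levels. Within them, 259 cells with at least 3 UMIs of Dcn, Lum and Col3a1, split off after the values were seen, had 623 CPM of Mmp14 (577 to 672), 635 CPM of Timp2 (589 to 685) and 149 CPM of Mmp2 (127 to 174). In the cells without that mark, Timp2 was at 68.5 CPM and Mmp2 at 6.36 CPM, while Mmp14 still lay above the capillary and tip levels. The unclassified cells of PyMT had 3172 CPM of pan-endothelial markers, against 3095 CPM in capillaries. In KPC, 102 cells with the mark had 1059 CPM of Timp1 (935 to 1194), against 110 CPM in the rest. Cells of no class with immune markers numbered 9 in PyMT and 49 in KPC and had 444 CPM (13 UMIs, 236 to 758) and 218 CPM (24 UMIs, 140 to 324) of Timp2.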
